A study of Mus musculus with 8 samples.

Results

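Retinoic acid synthesis, transport, breakdown and reception were described in immobilized mouse muscle through 9 genes, which were chosen by name from the 55487 genes of the deposited table. They were Rdh10, Aldh1a1, Aldh1a2, Aldh1a3, Rbp4, Cyp26b1, Rara, Rarb and Rarg. Aldh1a2 was placed among them because the study lists it for a contrast between treatments. That contrast was not analysed here, so every value below describes levels within 1 group and no gene is said to respond to the treatment.

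The RNA came from 8 male C57BL/6J mice aged 10 weeks. Both hindlimbs of each mouse were held in casts for 8 days, and K14Q MOTS-c was injected intraperitoneally at 15 mg/kg/day, divided over 2 injections per day. MOTS-c is a short peptide encoded in mitochondrial DNA, and K14Q MOTS-c is a form with 1 amino acid replaced. All 8 mice therefore shared the strain, the sex, the casts and the peptide, and mice without casts or with another treatment were not analysed here. The sample labels name vastus lateralis as the muscle, whereas the study's design text and methods name gastrocnemius. Mice are numbered by the replicate number in the labels.

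Retinoic acid is made from vitamin A in a pair of oxidation steps. Retinol, which reaches tissues bound to retinol binding protein, is oxidized to retinal by retinol dehydrogenases, and retinal is oxidized irreversibly to retinoic acid by the aldehyde dehydrogenases of the ALDH1A family. Retinoic acid then binds the nuclear receptors RARα, RARβ and RARγ, which act on DNA as heterodimers with retinoid X receptors (RXRs), and CYP26 enzymes break it down. In muscle, retinoic acid is known mainly for its part in myogenic differentiation.

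The libraries held between 23985356 and 33012497 counts, and the authors' size factors ran from 0.906 to 1.20. The 10 most abundant genes took 18.8% to 26.2% of the counts. All 28 pairs of libraries differed beyond sampling noise, with 14.9 to 108 as their chi-square per degree of freedom. Muscle fibre markers were abundant in every mouse, with all 8 listed genes (Acta1, Ckm, Mb, Tnnt3, Myh1, Myh2, Myh4 and Myh7) at 10 counts or more in every library and summed levels of 1665480 to 3369190 normalized counts. None of the 6 hepatocyte markers and none of the 6 mesothelium markers reached 10 counts in every library. Of these, 5 and 4 never exceeded 3 counts, 3 hepatocyte markers and 2 mesothelium markers were listed at 0 in every library, and the summed levels were 0.978 to 7.57 and 11.9 to 41.3 normalized counts. Markers of the other resident cells were measured in every mouse, with summed levels of 10294 to 19186 for fibroblasts, 4180 to 5923 for endothelium, 2379 to 5929 for macrophages, 1050 to 1452 for satellite cells, 1667 to 4029 for Schwann cells, 612 to 2187 for adipocytes and 7060 to 28320 for red blood cells. All listed markers reached 10 counts in every library except 1 of 6 for adipocytes, 1 of 6 for satellite cells and 1 of 8 for Schwann cells. In whole muscle, fewer cells of a type and less RNA per cell cannot be told apart.

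The promoter of Rarb is shown first because Rarb is the classical retinoic acid target among the 9 genes. The window belongs to a start inside the annotated gene, whereas the counts cover the whole gene. Retinoic acid receptors bind a direct repeat of a 6-base half-site with a spacer of 5 bases, called DR5. The half-site was searched as AGGTCA or as the variant AGTTCA, and also as GGGTCA or as the variant GGTTCA, on both strands of RefSeq promoter windows of 300 bases (250 before and 50 after the annotated start, GRCm38.p6). In the Rarb window, on the minus strand at chr14:16575427-16575726 and written 5′ to 3′ along the gene, capitals mark the DR5, which lies at bases -53 to -37 from the start.
Rarb promoter: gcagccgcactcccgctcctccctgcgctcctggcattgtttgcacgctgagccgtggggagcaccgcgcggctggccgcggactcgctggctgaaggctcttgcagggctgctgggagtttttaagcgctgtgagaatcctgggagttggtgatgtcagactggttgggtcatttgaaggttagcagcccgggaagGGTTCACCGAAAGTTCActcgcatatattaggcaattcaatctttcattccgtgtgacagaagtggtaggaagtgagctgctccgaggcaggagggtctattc

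The element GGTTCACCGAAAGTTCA consists of the half-sites GGTTCA and AGTTCA. Windows were found for 7 of the 9 genes, 13 in all, and Rarb was the only one with a DR5. Across all promoters, 32 of 32851 windows (0.0974%) held such a repeat, and 31 of 27025 genes (0.115%) had a window with one. Repeats spaced by 2 bases (0.268% of all windows) or by 1 base (0.222%) were absent from the 13 windows. Among 39 other genes of the retinoid pathway, listed by function, 30 had a window and 1 had a DR5. This was Cyp26a1, which encodes a retinoic acid hydroxylase, and its repeat is on the strand opposite to the gene at bases -32 to -16 of the plus-strand window chr19:37697558-37697857.
Cyp26a1 site with 10 bases on each side: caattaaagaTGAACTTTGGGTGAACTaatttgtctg
The genes with a DR5 differed widely in level. Rarb was counted in every library, whereas Cyp26a1 had 0 to 2 counts in every library.

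Retinol dehydrogenase 10, encoded by Rdh10 (chr1:16105774-16133734, plus strand, GRCm38), catalyses the oxidation of retinol to retinal. Its normalized count was 93.4 in mouse 1, 94.0 in mouse 2, 93.9 in mouse 3, 90.2 in mouse 4, 124.7 in mouse 5, 89.0 in mouse 6, 90.5 in mouse 7 and 95.2 in mouse 8. Mouse 5 stood above the others, which lay within 89.0 to 95.2. The mean was 96.4 ± 11.7 (SD, n = 8), and without mouse 5 it was 92.3 ± 2.37 (SD, n = 7). Rdh10 was the steadiest of the 9 genes, with a coefficient of variation (CV, SD over mean) of 12.1% between mice beside 10.3% from counting error alone. Without mouse 5 the CV was 2.57%, less than counting error alone gives, under the authors' size factors. Scaling by library totals instead of the authors' size factors brought the highest of the other mice to 108.9 beside 121.7 in mouse 5.

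Aldh1a1 (chr19:20492715-20643465, plus strand), which encodes the most widely expressed of the retinal dehydrogenases, was by far the highest of the 9 genes. Its normalized count was 2375 in mouse 1, 1765 in mouse 2, 1745 in mouse 3, 1522 in mouse 4, 2772 in mouse 5, 1549 in mouse 6, 1717 in mouse 7 and 2372 in mouse 8. Mice 1, 5 and 8 lay above 2000 and the other 5 mice below 1800. The mean was 1977 ± 464 (SD, n = 8), and the CV of 23.4% was large beside the 2.27% from counting error. The near-copy Aldh1a7 shares 3.06% of the 50-base stretches of Aldh1a1 and had 13 to 45 counts, beside 1384 to 3023 counts for Aldh1a1.

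Aldh1a2 (chr9:71215789-71296243, plus strand), the main retinoic acid-forming enzyme of the early embryo, was measured at 165.6 normalized counts in mouse 1, 161.0 in mouse 2, 138.7 in mouse 3, 100.1 in mouse 4, 122.9 in mouse 5, 150.7 in mouse 6, 165.6 in mouse 7 and 92.0 in mouse 8. Mice 4 and 8 were lowest, and mice 1, 2 and 7 were highest. The mean was 137 ± 29.3 (SD, n = 8) from 84 to 167 counts per library, and the CV was 21.4% beside 8.63% from counting error. Its exons overlap no other gene's exons in the annotation, and none of its 50-base stretches occurs in another gene.

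Aldh1a3 (chr7:66390890-66427517, minus strand), the third enzyme of the family, was the lowest of the 3. It ranged from 21.6 normalized counts in mouse 3 and 23.0 in mouse 8, through a median of 39.2, to 54.04 in mouse 2. The mean was 37.7 ± 11.4 (SD, n = 8) from 21 to 50 counts per library, and the CV of 30.3% compares with 16.6% from counting error. The plot of levels by mouse sets the 3 enzymes beside the other genes.

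**Figure D1:**
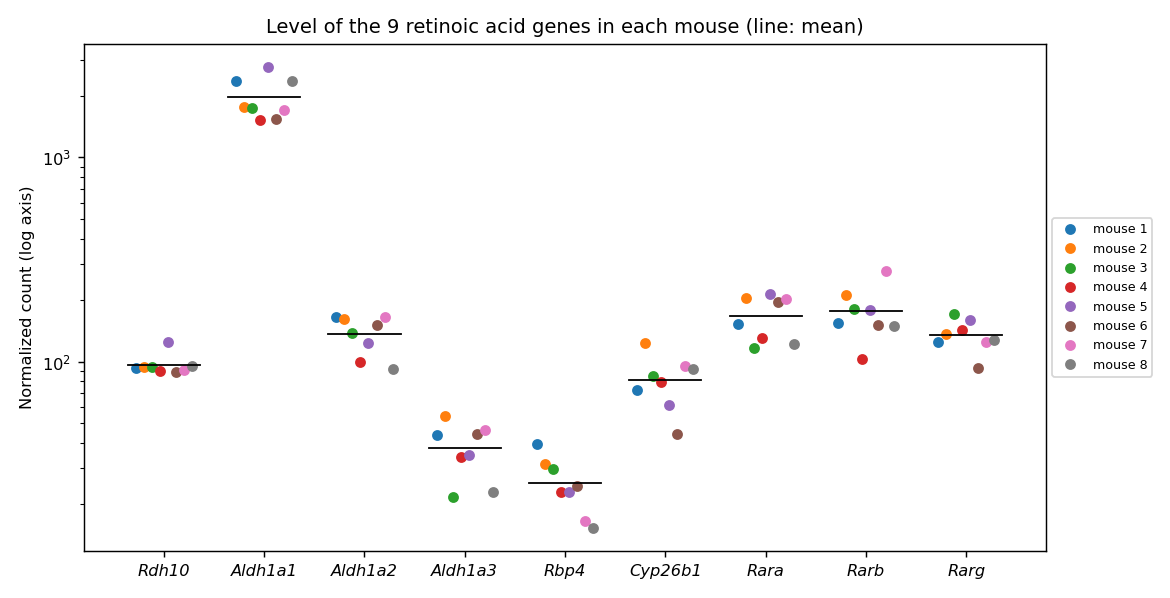
Normalized count (log axis) of the 9 genes, 1 point per mouse with a line at the mean of the 8 mice. Aldh1a1 sits between 1522 and 2772 and the other 8 genes lie below 300, while Rdh10 in mouse 5 (124.7) stands above the 7 other mice (89.0 to 95.2).

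Rbp4 (chr19:38116629-38125281, minus strand) encodes the plasma carrier of retinol, which is made mainly by liver and also by adipose tissue. Its normalized count was 39.3 in mouse 1, 31.3 in mouse 2, 29.9 in mouse 3, 23.1 in mouse 4, 22.9 in mouse 5, 24.5 in mouse 6, 16.6 in mouse 7 and 15.3 in mouse 8. Mice 1, 2 and 3 were highest, and mice 7 and 8 were lowest. The mean of 25.4 ± 7.93 (SD, n = 8) rested on only 14 to 37 counts per library. Its CV of 31.3% was the highest of the 9 genes, as was the part of it that counting error alone gives.

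Cyp26b1 (chr6:84571414-84593908, minus strand) encodes a cytochrome P450 that hydroxylates retinoic acid. It was lowest in mouse 6 at 44.0 normalized counts, had a median of 82.0 and was highest in mouse 2 at 123.2. The mean was 81.5 ± 23.7 (SD, n = 8), and its highest mouse was 2.80 times its lowest, the widest span of the 9 genes. The related Cyp26a1 and Cyp26c1 had at most 2 counts in any library, so Cyp26b1 was the only CYP26 gene with counts in quantity.

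The 3 receptor genes had similar normalized counts, though those of Rarb are subject to the overlap with Top2b described below. Rara (chr11:98927818-98974942, plus strand) had 152.9 normalized counts in mouse 1, 204.3 in mouse 2, 117.1 in mouse 3, 130.8 in mouse 4, 213.7 in mouse 5, 194.7 in mouse 6, 203.1 in mouse 7 and 121.5 in mouse 8, with a mean of 167 ± 40.9 (SD, n = 8). Mice 2, 5, 6 and 7 formed the higher values and mice 3, 4 and 8 the lower ones. Rarg (chr15:102234938-102257517, minus strand) ranged from 93.0 in mouse 6 through a median of 132.1 to 170.3 in mouse 3, with a mean of 135 ± 23.8 (SD, n = 8).

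Rarb (chr14:16430839-16819156, minus strand), which has the DR5 printed above in a promoter that lies inside the annotated gene, had 155.0 normalized counts in mouse 1, 212.9 in mouse 2, 181.9 in mouse 3, 103.4 in mouse 4, 179.7 in mouse 5, 151.7 in mouse 6, 278.2 in mouse 7 and 150.0 in mouse 8. Mouse 7 was the highest and mouse 4 the lowest, a ratio of 2.69. The mean was 177 ± 51.9 (SD, n = 8). Exons of Rarb overlap those of Top2b, a topoisomerase gene on the opposite strand, over 1793 bases, and 30.8% of the 50-base stretches of Rarb also occur in Top2b. Top2b had 1936 to 2541 normalized counts and was highest in mouse 2, while mouse 7 had 2141. The use of strand in counting is not given in the sources used here, so reads in the overlap cannot be assigned to either gene.

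The spread between mice was larger than that of most genes for 8 of the 9. The median CV was 24.4% over the 9 genes and 15.6% over the 15135 genes that reached 10 counts in each mouse, and Rdh10 was the only one of the 9 below the latter. That comparison was not matched by level, since the median mean was 135 normalized counts over the 9 genes and 308 over the 15135. Compared with genes of similar level, whose mean lay within a factor of 2, the CV of Rarb was 29.4% beside a median of 15.5%, and 91.2% of those genes had a lower CV. The CV of Cyp26b1 was 29.1% beside 18.9%, that of Rara 24.4% beside 15.7%, and that of Aldh1a1 23.4% beside 12.3%. The gap was smaller for Aldh1a3 (30.3% beside 24.3%), Rbp4 (31.3% beside 25.9%) and Aldh1a2 (21.4% beside 16.4%). Rarg (17.6% beside 16.4%) was close to genes of its level, and Rdh10 (12.1% beside 18.0%) was below them. The highest mouse was at least 2 times the lowest for Aldh1a3, Rbp4, Rarb and Cyp26b1, that is 4 of 9, whereas 22.9% of the 15135 genes had such a span. These counts describe the 9 genes, which were chosen by name, and carry no test.

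**Figure D2:**
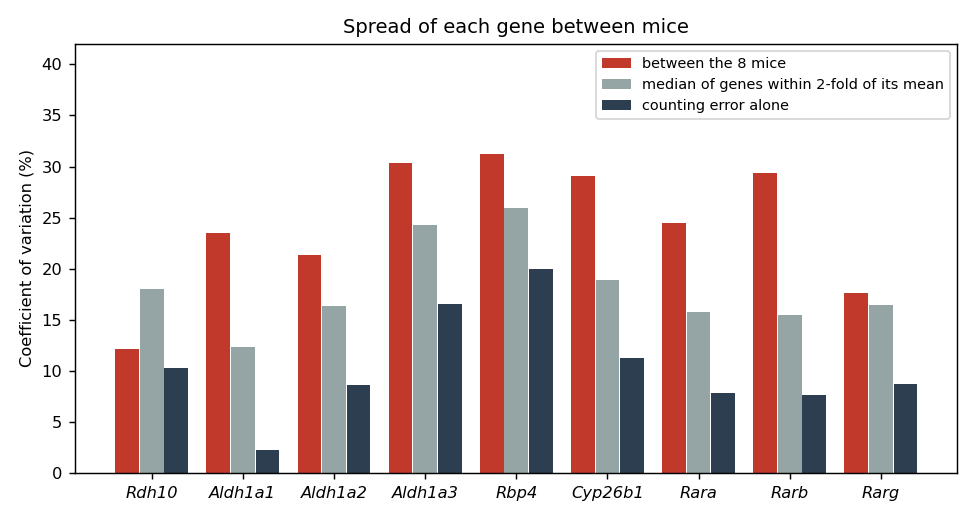
CV (%) of each gene between the 8 mice (red), the median CV of genes whose mean lies within a factor of 2 (grey) and the CV that counting error alone gives (dark blue). In 8 of the 9 genes the red bar is above the grey one, with Rarb at 29.4% beside 15.5%, and Rdh10 is the exception at 12.1% beside 18.0%.

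Levels of different genes were compared per kilobase of merged exons. Aldh1a1 stood at 400 ± 93.9 normalized counts per kilobase (SD, n = 8), 6.61 times Aldh1a2 at 60.5 ± 12.9, and the ranges of these neighbours in the order did not overlap. Aldh1a2 was followed by Rara at 38.3 ± 9.37, which was lower in 8 of 8 mice although the ranges overlapped. Rara, Rarb at 33.5 ± 9.85 and Rarg at 31.7 ± 5.59 could not be ordered, since Rara exceeded Rarb in 5 of 8 mice and Rarb exceeded Rarg in 4 of 8. The length of Rarb includes the 1793 bases that overlap Top2b. Its level per kilobase therefore depends on how reads in that overlap were counted, which is not known. Rdh10 followed at 23.2 ± 2.80, below Rarg in 8 of 8 mice. Rbp4 at 18.9 ± 5.91 was below Rdh10 in 6 of 8 mice, and Cyp26b1 at 15.2 ± 4.43 was below Rbp4 in 6 of 8, with overlapping ranges. Aldh1a3 was lowest at 8.16 ± 2.47, below Cyp26b1 in 7 of 8 mice. With the longest transcript as the length, Aldh1a1 came to 838 per kilobase and Rarb moved above Rara.

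Among the 3 retinal dehydrogenases, Aldh1a1 made up 84.9% ± 4.15 of the summed level per kilobase (SD, n = 8, range 80.5% to 91.3%), Aldh1a2 13.3% ± 3.60 (7.72% to 17.1%) and Aldh1a3 1.80% ± 0.661. Aldh1a1 exceeded Aldh1a2 from 4.71 to 11.8 times per kilobase over the mice (median 6.17), and on average 14.7 times with the longest transcripts. The 3 receptors shared their sum more evenly, with 36.9% ± 5.97 for Rara, 31.9% ± 5.06 for Rarb and 31.2% ± 6.80 for Rarg. These receptor shares carry the same limit for Rarb, whose length includes its overlap with Top2b.

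The other genes of the pathway placed these levels in context. Of the 39 listed, 20 reached 10 counts in each mouse (called measured below) and 11 never exceeded 3 counts. All 8 receptors and cofactors were measured, led per kilobase by Rxra at 638 ± 59.2, and the corepressor Ncor1 was at 410 ± 54.5 (SD, n = 8). The summed level of the 3 RXR genes was 1106 ± 94.9 per kilobase and that of the 3 RAR genes 104 ± 17.1, a ratio of 10.9 ± 1.55 that ran from 8.37 to 12.7. With the longest transcripts as lengths the mean ratio was 8.75. The RAR sum includes Rarb and so also depends on how reads in its overlap with Top2b were counted.

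Of 19 enzymes that interconvert or store retinol and retinal, 10 were measured, and the highest per kilobase were Rdh14 at 545 ± 23.8, Dhrs3 at 302 ± 73.5 and Adh1 at 264 ± 41.3. This order depends on the length used, since per kilobase of the longest transcript Rdh5 (227 ± 27.6 per kilobase of merged exons) was second to Rdh14 at 480, above Adh1 at 394 and Dhrs3 at 378. Dhrs3, a retinaldehyde reductase that acts in the opposite direction to Rdh10, was 13.3 ± 3.81 times as high as Rdh10 per kilobase, with the lowest ratio, 6.14, in mouse 5. Lrat, which esterifies retinol for storage, had 0 to 2 counts in every library. Of 9 binding proteins and carriers, 2 were measured, and the higher was Fabp5, a fatty acid binding protein that also carries retinoic acid, at 26.96 ± 4.83 per kilobase. Crabp1 and Crabp2, which encode cellular retinoic acid binding proteins, had at most 3 counts, and Ttr, the plasma partner of RBP4, at most 1. Stra6, the membrane receptor for RBP4, had 1 to 11 counts. None of the 3 remaining enzymes that form or degrade retinoic acid (Aldh8a1, Cyp26a1 and Cyp26c1) reached 10 counts in every library.

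**Figure D3:**
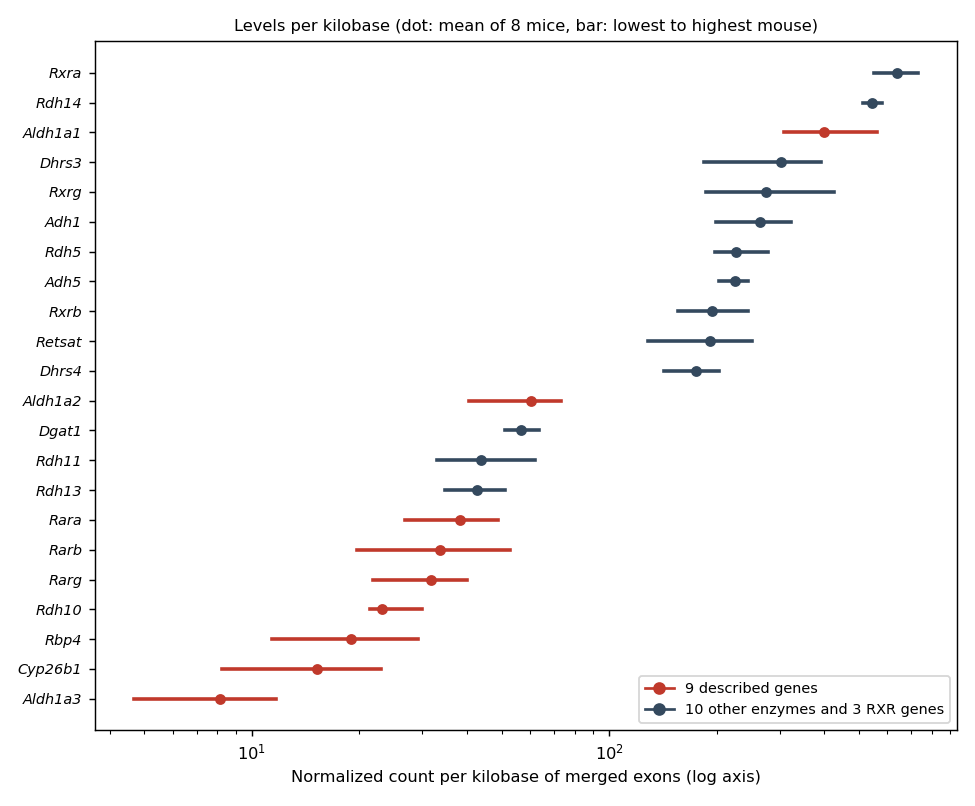
Normalized count per kilobase of merged exons (log axis) for the 9 genes (red) and for 10 other enzymes of retinol and retinal and the 3 RXR genes (dark blue), with dots at the mean of the 8 mice and bars from the lowest to the highest mouse. Aldh1a1 (400) lies among the highest genes with Rxra (638) and Rdh14 (545), whereas the 3 receptor genes lie between 31.7 and 38.3.

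Whether the levels varied with the cell types of the muscle was measured with scores for fibroblasts, adipocytes, endothelium, macrophages, satellite cells and Schwann cells. Each score was the mean z-score of those markers of 1 list that reached 10 counts in every library. The scores used 5 of 6 markers for adipocytes, 5 of 6 for satellite cells, 7 of 8 for Schwann cells and all 8 for the others. Over the 54 relations between 9 genes and 6 scores, Pearson's r ran from -0.593 to 0.863 with a median of 0.140. By limma's test of the slope with Benjamini-Hochberg adjustment over all genes, 0 of the 54 passed an adjusted p of 0.05, and the smallest adjusted p was 0.185. Over all genes tested, limma called 0.701% with the fibroblast score (edgeR 0.45%), 0.165% with the macrophage score (edgeR 0%), 0.0198% with the adipocyte score (the same share by edgeR) and 0% with each of the other 3 scores (also 0% by edgeR). These shares of all genes depended on single mice. With the fibroblast score 106 genes were called, but 10 without mouse 1, 9 without mouse 2, 166 without mouse 3, 51 without mouse 6, 39 without mouse 7 and 0 without mouse 8. With the macrophage score 25 were called, but 1 without mouse 1 or mouse 2, 40 without mouse 4, 0 without mouse 6, mouse 7 or mouse 8, and 110 (0.727%) with library totals. With the adipocyte score 3 were called, but 0 without mouse 2, mouse 6 or mouse 8, 1 without mouse 1 or mouse 7, 2 without mouse 5, 39 without mouse 3 and 58 without mouse 4. At an unadjusted p under 0.05, limma gave 5 of the 54 relations and edgeR's quasi-likelihood test gave 6, while edgeR also gave 0 after adjustment. The 5 were Rbp4 with the fibroblast, adipocyte, endothelium and macrophage scores and Rarb with the Schwann cell score, where 17.1%, 11.8%, 9.12%, 15.6% and 1.75% of all genes, respectively, were under the same unadjusted threshold. These shares also depended on single mice. Without mouse 8 the genes under it went from 2585 to 1138 (fibroblast), 1781 to 737 (adipocyte) and 1379 to 1134 (endothelium). They went from 2367 to 1188 with the macrophage score and from 264 to 759 with the Schwann cell score. None of the 9 genes was under the unadjusted threshold with the satellite cell score, beside 3.23% of all genes. That share was 488 genes, but 3245 were under it with library totals and 1091 without mouse 5. The sixth by edgeR was Rarb with the macrophage score.

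Rbp4 had the highest correlations with the marker scores. The exact permutation p values given here and below carry no adjustment. For Pearson's r, 4 of the 54 relations were under 0.05 by this test, which was not run over all genes. With the adipocyte score Pearson's r was 0.863 by an exact permutation test of the 8 mice (two-sided p = 0.00595), and Spearman's rho was 0.857 (exact permutation p = 0.0107). When the 2 mice at the greatest distance from the median of the score were left out (the extreme pair below), r was 0.766. The limma slope was 0.38 ± 0.11 (SE) on the log2 scale per SD of the score, with an adjusted p of 0.232, and r stayed between 0.784 and 0.905 when each mouse was left out in turn. With the fibroblast score, r was 0.794 (exact permutation p = 0.0204), Spearman's rho came to 0.762 (exact permutation p = 0.0368), the remaining 6 mice gave 0.646, and limma's slope had an adjusted p of 0.185. With the macrophage score, r was 0.742 (exact permutation p = 0.0361) and Spearman's rho 0.643 (exact permutation p = 0.0962), but r came to -0.076 once the extreme pair was left out, so this relation rested on that pair. Limma's test gave no smaller adjusted p here than with the fibroblast score. With the endothelium score, r was 0.734 (exact permutation p = 0.0407), Spearman's rho 0.690 (exact permutation p = 0.0694) and r among the remaining 6 mice 0.956, with an adjusted p by limma of 0.493. These relations are not separate observations, because the 4 scores themselves were below 0 together in mice 7 and 8 and above 0 together in mice 1 and 2. The hepatocyte markers, which mark the main site of Rbp4 synthesis, were at or near 0 in every mouse.

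Aldh1a2 passed neither the adjusted nor the unadjusted threshold with any score, and limma's adjusted p was at least 0.506 for each of the 6. Its r was 0.559 with the adipocyte score (exact permutation p = 0.157), against a Spearman's rho of 0.429 (exact permutation p = 0.299), and it came to 0.108 among the 6 mice outside the extreme pair. With the Schwann cell score its r was 0.563 (exact permutation p = 0.140), against a Spearman's rho of 0.667 (exact permutation p = 0.083), and 0.607 in the 6 mice. Rarb and the Schwann cell score gave r = 0.645 by exact permutation (p = 0.107) and a Spearman's rho of 0.595 (exact permutation p = 0.132). It came to 0.341 among the 6 mice outside the extreme pair and to 0.113 when mouse 7 alone was left out, which took the slope from 0.27 to 0.073 on the log2 scale per SD, so the relation rested on mouse 7, which was highest in both.

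No pair of the 9 genes passed the adjusted test. Over the 36 pairs, r ran from -0.487 to 0.803 with a median of 0.0526, and 20 pairs were positive. By the exact permutation test of Pearson's r, without adjustment, 2 of the 36 were under 0.05. With either gene of a pair as the covariate, 0 of the 36 passed an adjusted p of 0.05 by limma or edgeR. Of all genes, limma called 0.00661% with Rdh10 as the covariate and 0% with each of the other 8 genes, and edgeR called 0% with each of the 9. With library totals in place of the authors' size factors, limma called 45 of all genes (0.297%) with Rdh10 and 1 with Rara, and with no count minimum it called 16 (0.0514%) with Rbp4. With 1 mouse left out, limma called 0 to 2 genes with Rdh10, 1 with Rbp4 (without mouse 1) and 1 with Rarg (without mouse 6). At an unadjusted p under 0.05 with the first gene of a pair as the covariate, limma gave 3 pairs and edgeR the same 3, which were Aldh1a2 with Aldh1a3, Aldh1a2 with Rarb and Aldh1a3 with Rara. Of all genes, 9.09% were under this threshold with Aldh1a2 and 11.3% with Aldh1a3. The share was 3.91% with Aldh1a1, 14.6% with Rbp4, 7.37% with Rara, 4.14% with Rarb, 4.82% with Rarg, 1.41% with Cyp26b1 and 7.1% with Rdh10. These shares depended on the scaling. With library totals the genes under the threshold went from 1376 to 408 with Aldh1a2, 1710 to 1284 with Aldh1a3 and 626 to 177 with Rarb. They rose from 730 to 2277 with Rarg and from 1075 to 2287 with Rdh10. With Aldh1a2 they were 814 without mouse 1 and 827 without mouse 2.

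The highest correlation was that of Aldh1a3 and Rara, with r = 0.803 by exact permutation over the 8 mice (p = 0.0177) and a Spearman's rho of 0.762 (exact permutation p = 0.0368). Among the 6 mice outside the extreme pair in Aldh1a3, r was 0.439. Its limma slope was 0.29 ± 0.085 (SE) on the log2 scale per SD of Aldh1a3, with an adjusted p of 0.263. Aldh1a1 and Rdh10, which encode enzymes of successive steps, gave r = 0.758 by exact permutation (p = 0.00265), a Spearman's rho of 0.833 (exact permutation p = 0.0154) and 0.805 among the 6 mice, with an adjusted p by limma of 0.999. Mouse 5 was highest in both genes. With any 1 mouse left out r stayed between 0.735 and 0.857, but without mouse 5 the slope of Rdh10 on Aldh1a1 went from 0.12 to 0.028 on the log2 scale per SD, since the other 7 mice spanned little of Rdh10 under the authors' size factors. Aldh1a2 and Aldh1a3 gave r = 0.676 by exact permutation (p = 0.0702), a Spearman's rho of 0.690 (exact permutation p = 0.0694), 0.627 among the 6 mice and an adjusted p by limma of 0.534. Aldh1a2 and Rarb gave r = 0.648 by exact permutation (p = 0.0828), a Spearman's rho of 0.619 (exact permutation p = 0.115), 0.291 among the 6 mice and an adjusted p by limma of 0.532, and its slope of 0.27 came to 0.15 without mouse 4. For each of these pairs, limma's adjusted p took the gene named first as the covariate. With the second gene as the covariate, limma's adjusted p was 0.644 for Aldh1a3 and Rara and 0.481 for Aldh1a1 and Rdh10. It was then 0.406 for Aldh1a2 and Aldh1a3 and 0.980 for Aldh1a2 and Rarb.

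**Figure D4:**
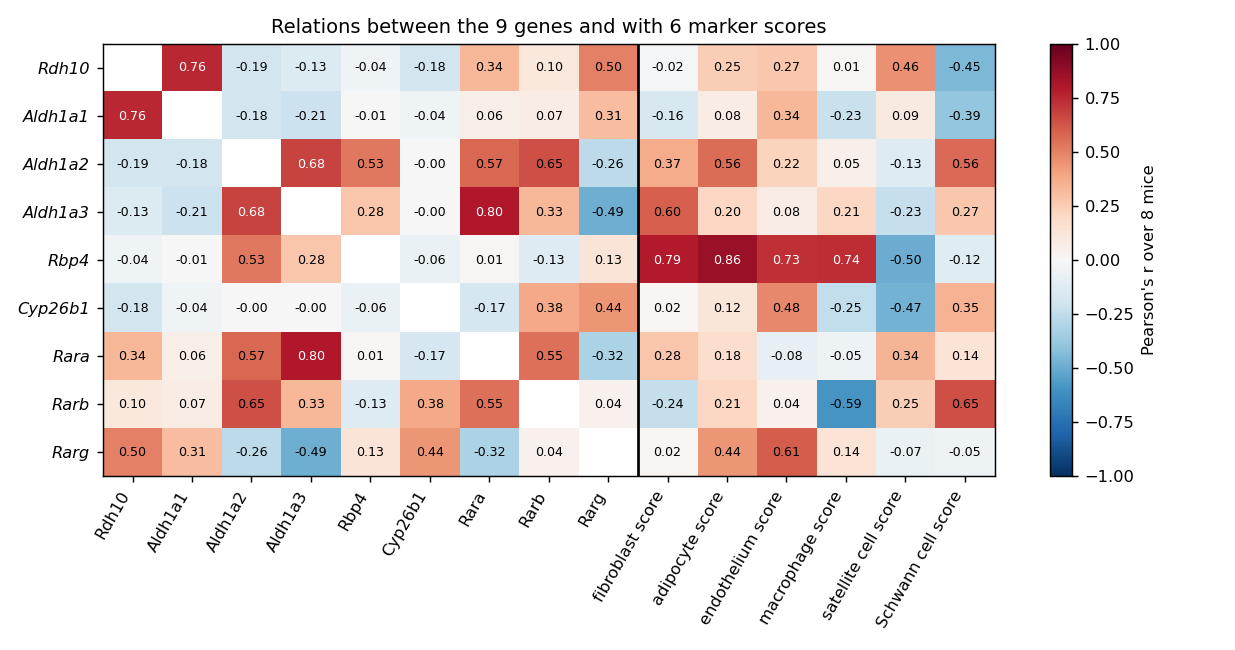
Pearson's r over the 8 mice (colour and number) between the 9 genes (left of the line) and between each gene and the 6 marker scores (right of the line). Rbp4 holds the highest values to the right of the line, 0.863 with the adipocyte score among them, and the pairs of genes run from -0.487 to 0.803, none of which passed the adjusted test.

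**Figure D5:**
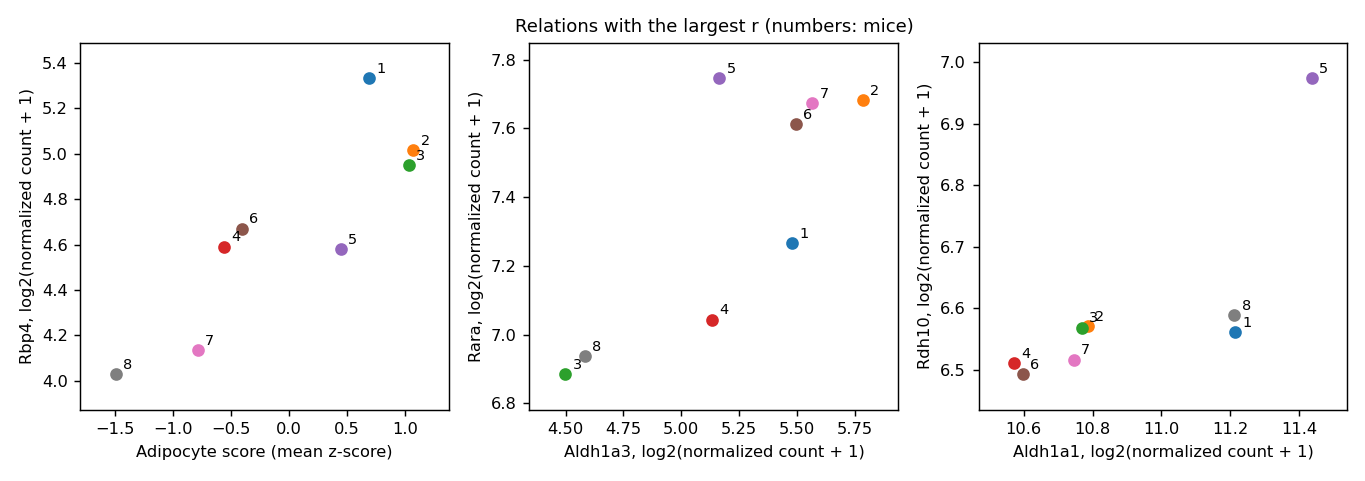
Rbp4 against the adipocyte score (left), Rara against Aldh1a3 (middle) and Rdh10 against Aldh1a1 (right), 1 numbered point per mouse, with levels as log2(normalized count + 1) and the score as a mean z-score. Mouse 8 is lowest on both axes of the left panel, and mouse 5 is apart from the other mice in the right panel.

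Over the 20 other pathway genes measured and the 6 scores, 0 of 120 relations passed an adjusted p of 0.05 by limma or by edgeR, and 10 by limma and 12 by edgeR were under an unadjusted p of 0.05. Among all genes, limma put 1.75% (Schwann cell score) to 17.1% (fibroblast score) under that threshold, and edgeR put 258 (Schwann cell score) to 2515 (fibroblast score) genes under it.

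For each of the 9 genes, the protein-coding genes with the most similar pattern over the 8 mice were listed by Pearson's r of log2(normalized count + 1), as a description that shares libraries and scaling across all genes. For Aldh1a1 they were Fhl3 (0.985), Dock6 (0.965) and Pdlim1 (0.949). For Aldh1a2 they were Stom (0.950), Ankrd24 (0.940) and Gm20695 (0.937), and for Aldh1a3 Rcor1 (0.976), Ide (0.972) and Col6a2 (0.971). Rbp4 was most like Rftn2 (0.991), Btbd3 (0.980) and Pros1 (0.969), and Cyp26b1 most like Tspan6 (0.921), Rps6kc1 (0.906) and Vps4b (0.890). Among the receptors, Rara was most like Ssbp2 (0.976), Adamts20 (0.967) and Nfic (0.956), Rarb most like Sec23b (0.959), Fam122a (0.933) and Ogfrl1 (0.927), and Rarg most like Arhgap27 (0.957), Pkp4 (0.953) and Baiap2 (0.952). Rdh10 was most like Hexim2 (0.987), Cast (0.969) and Dot1l (0.964), although Spearman's rho was only 0.690 with Cast and 0.524 with Dot1l. An r of 0.8 or more was reached by 0.535% of the 15134 other genes with Aldh1a1, 1.2% with Aldh1a2, 1.86% with Aldh1a3, 3.49% with Rbp4, 1.26% with Rara, 0.568% with Rarb, 0.641% with Rarg, 0.383% with Cyp26b1 and 1.41% with Rdh10.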

How the data were processed

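mRNA-seq of poly-adenylated RNA from the muscle of 8 mice was analysed. The authors checked reads with FastQC, trimmed them with fastp, mapped them with STAR to GRCm38.p6 (submitters' processing notes), used summarizeOverlaps for counts per gene, and scaled these with DESeq2. The annotation release and the use of strand are not given in the sources used here. As deposited, the signal of a gene equals its count over a size factor that each library has once: 100% of the values were whole reads within a tolerance of 0.01, so counts were recovered, and 55227 of the 55487 identifiers were found in GENCODE release M21. The totals per library limit precision most for genes near 10 counts, and counting error covers reads, not molecules.

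Levels are the deposited values. Slopes were fitted with limma 3.58.1 (trend) on log2(value + 1) over genes that reached 10 counts in each mouse, with Benjamini-Hochberg adjustment over all of them and marker genes left out of the fit on their own score, and with edgeR 4.0.16 on the recovered counts. The correlations were tested by exact permutation, two-sided. The limma fit was also run on simulated counts with known slopes, the outcome of which is not reported here. Groups came from the labels, and with 1 group no difference between treatments was tested. Positions, lengths and overlaps came from GENCODE M21 and promoters from RefSeq.

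The 9 genes and all lists were chosen with earlier results of these data known. Named were the 9 genes, the 3 protein-coding genes (mean of at least 50 normalized counts) with the highest r to each, the 3 highest genes per kilobase of each pathway group, and the markers, except 2 pathway genes that are not reported here. Other pathway genes (Rdh5, Bco1, Lrat, Crabp1, Crabp2, Ttr, Stra6, Aldh8a1, Cyp26a1, Cyp26c1), Top2b and Aldh1a7, and the relations given in full, were chosen after their values were seen. Alternatives were TMM factors, library totals, no count minimum, a pseudocount of 5, Spearman correlation, longest transcripts, the median over mice, edgeR and leaving out each mouse, of which longest transcripts for the ratios, and library totals, no count minimum and edgeR for pairs of the 9 genes, were added after seeing the data. The software was R 4.3.3 and Python 3.11.15 with pandas 2.3.3, scipy 1.17.1 and numpy 2.4.6.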

Additional observations from a re-analysis of the deposited data

Results flagged for a closer look

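The level of Rdh10 in mouse 5 was flagged because its distance from the nearest other mouse was 0.826 of the whole range of the 8 mice, above Dixon's 95% critical value for 8 samples. It was 124.7 normalized counts, and the other 7 mice lay between 89.0 and 95.2. The fraction was 0.787 with TMM factors and 0.327 with library totals, the latter below the critical value. The Schwann cell score of mouse 7 was flagged in the same way, with a score of 1.72 beside at most 0.324 in the other mice and a fraction of 0.554. Mouse 7 was also the highest in Rarb, and the part of Schwann cell transcripts in that level was not tested. The 9 levels and the 6 scores made 15 groups of values examined, of which 2 were flagged, and chance flags about 1 in 20.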

How the results depend on the processing

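No paired analysis was possible because only 1 group was analysed. The mean levels hardly moved with the scaling (Aldh1a2 137.1 with TMM factors and 136.4 with library totals). This says little, since the alternative factors were brought to the same geometric mean as the authors' size factors. The slopes of 9 relations (Rbp4 on 4 scores, Rarb on the Schwann cell score, and 4 pairs of the 9 genes) kept their direction and stayed short of the adjusted threshold in 117 of 117, of which 45 did not leave out a mouse. In proportion, their sizes fell most with 1 mouse left out in 3 relations: 0.12 came to 0.028 for Rdh10 on Aldh1a1 without mouse 5, 0.27 to 0.073 for Rarb on the Schwann cell score without mouse 7, and 0.27 to 0.15 for Rarb on Aldh1a2 without mouse 4 (0.19 without mouse 7). Smaller falls occurred in others, such as 0.31 to 0.21 for Aldh1a3 on Aldh1a2 without mouse 8. Without the same mouse, the slope of Rbp4 on the macrophage score went from 0.33 to 0.24. The counts of relations past an adjusted p of 0.05 were 0 under each alternative tried. The adjusted p of Rbp4 with the adipocyte score ran from 0.158 to 0.999 over its alternatives, and that with the fibroblast score from 0.136 to 0.725. With the longest transcript as the length, 7 of the 8 neighbouring pairs kept their order, the ratio of RXR to RAR came to 8.75, that of Rdh14 to Rdh10 to 20.4 and that of Aldh1a1 to Aldh1a2 to 14.7. With Spearman's rho in place of Pearson's r, only 4 of the 27 most similar genes remained among the 3 nearest. With 14 to 37 counts for Rbp4 and 21 to 50 for Aldh1a3, the depth leaves these genes the least precise of the 9.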

Other observations

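Red blood cell markers, which entered none of the relations, had their highest summed level, 28320 normalized counts, in mouse 5 and their lowest, 7060, in mouse 8. Mouse 5 was also the highest in Aldh1a1 and Rdh10, whereas mouse 8 had the third highest Aldh1a1 (2372) and the second highest Rdh10 (95.2), and the part of blood in those levels was not tested. The other promoter repeat found among the pathway genes was a repeat spaced by 1 base upstream of Bco1, a carotenoid oxygenase that forms retinal, in the plus-strand window chr8:117095615-117095914, on the strand opposite to the gene, with capitals on the repeat.
Bco1 site with 10 bases on each side: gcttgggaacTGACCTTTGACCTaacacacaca
Bco1 itself had 0 to 1 counts in every library.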
